A study of Caenorhabditis elegans with 2 samples.

Results

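The cytosolic ribosomal protein genes of the nematode Caenorhabditis elegans were examined for binding of the protein F13C5.2 in early embryos. They are the protein-coding genes whose name is rpl- or rps- followed by a digit, which gave 78 of 19973 protein-coding genes, 47 for the large subunit (rpl) and 31 for the small subunit (rps). The embryos, of mixed sex and collected 1 hour after synchronization by egg bleaching, came from strain OP605, unc-119(tm4063) III with the integrated transgene wgIs605. That transgene supplies F13C5.2 with a C-terminal GFP-FLAG tag, and its chromatin was recovered with an antibody against GFP and sequenced (ChIP-seq). There were 2 biological replicates of this single group, which the labels number 2 and 3, and no second condition. The signal is therefore that of a tagged transgene product in whole embryos, with all embryonic cells pooled.

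Ribosomal proteins assemble with ribosomal RNA into the small subunit, which reads the mRNA, and the large subunit, which joins amino acids. Their genes are transcribed strongly in growing cells and at matched rates, since each protein is needed in equal numbers. In C. elegans many of them are compact genes close to a gene on the opposite strand, many transcripts are trans-spliced so that the annotated 5′ end can lie downstream of the site where transcription starts, and several introns hold small nucleolar RNA (snoRNA) genes, whose products guide the modification of ribosomal RNA.

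The authors' optimal peak list came from the irreproducible discovery rate (IDR) procedure, which is meant to keep peaks that rank alike in replicates. Here that list held exactly the strongest peaks called on both replicates together. It is thus a cut by pooled rank, and its peaks need not rank alike in each replicate. A gene was called occupied if a listed summit lay 1000 bp upstream to 200 bp downstream of one of its annotated 5′ ends. Such a summit was found for 58 of the 78 ribosomal protein genes (74.4%, 95% Wilson interval 63.7 to 82.7), beside 8.51% of all protein-coding genes. The large subunit had 33 of 47 genes occupied (70.2%, 56.02 to 81.3) and the small subunit 25 of 31 (80.6%, 63.7 to 90.8), intervals that overlap. With the strongest replicate 2 peaks alone in place of the IDR list the order turned, to 74.5% of large-subunit and 64.5% of small-subunit genes, and with those of replicate 3 alone it was 57.4% and 67.7%. The intervals cover counting error only. The 58 genes rested on 55 distinct strongest summits, because 3 pairs of ribosomal protein genes share 1, and rpl-1 was the 1 gene with a second summit in its window.

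The peaks were not all alike in height. Signal, the authors' score per peak on a scale not given in the sources used here, ran from 80.4 to 492 over the 58 genes with a median of 130, beside a median of 107 over all IDR peaks. Medians were 129 for large-subunit and 133 for small-subunit genes. Of the 58, 8 ranked among the 100 strongest IDR peaks, 22 among the 500 strongest and 42, on 39 distinct peaks, in the stronger 50% of the list. Of all 1700 occupied coding genes 890 had a summit in that stronger 50%. The smaller depths were not counted over all occupied genes.

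**Figure D1:**
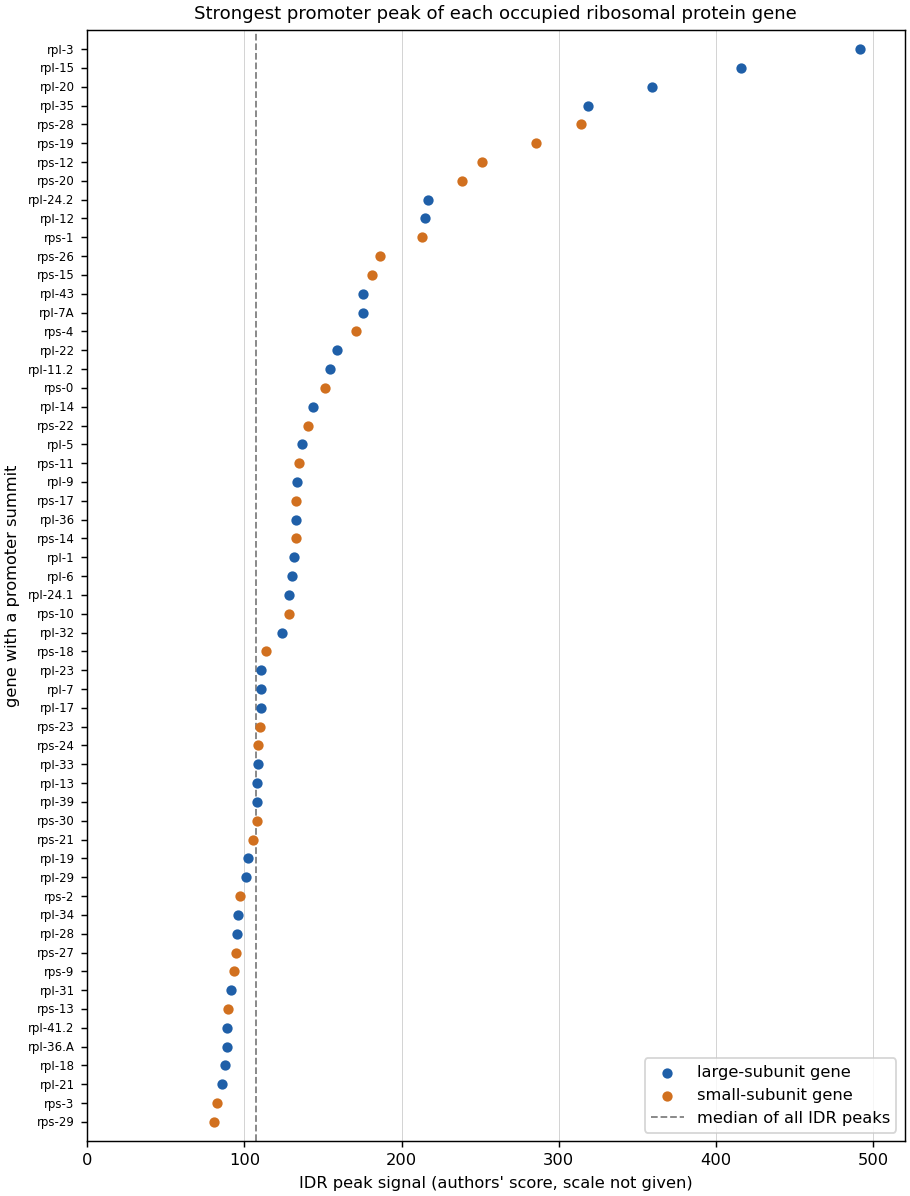
IDR peak signal (horizontal axis, the authors' score) of the strongest promoter summit of each of the 58 occupied ribosomal protein genes (vertical axis), large-subunit genes in blue and small-subunit genes in orange. The dashed line is the median of 107 over all IDR peaks, and the genes of both subunits are interspersed from 492 for rpl-3 down to 80.4 for rps-29.

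The 4 strongest were large-subunit genes. At rpl-3, whose protein lies near the peptidyl transferase centre, the signal was 492, IDR rank 3, with rank 4 in replicate 2 and rank 3 in replicate 3. At rpl-15 it was 416, rank 12, with replicate ranks 8 and 20. Both replicates placed these peaks among their 20 strongest. At rpl-20 the signal was 359, rank 21, with replicate ranks 13 and 41. At rpl-35, which encodes a protein near the exit of the nascent chain tunnel, it was 319, rank 31, with replicate ranks 25 and 44.

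The windows reaching 100 bp to either side of the rpl-15, rpl-20 and rpl-35 summits are shown because they are among the strongest of these genes. They were read from the RefSeq sequence of build WBcel235 (ce11) on the strand of the gene: rpl-15 chrIV:654814-655014 (minus strand), rpl-20 chrIV:4749979-4750179 (minus strand) and rpl-35 chrIII:7854595-7854795 (plus strand). Capitals mark the words ACCGTA and also CCTAAA and ACTCGT on either strand, described with the sequence results.
rpl-15: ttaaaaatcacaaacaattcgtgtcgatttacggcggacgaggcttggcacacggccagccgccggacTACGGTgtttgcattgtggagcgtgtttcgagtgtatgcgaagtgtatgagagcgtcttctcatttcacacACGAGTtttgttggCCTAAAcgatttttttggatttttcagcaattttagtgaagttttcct
rpl-20: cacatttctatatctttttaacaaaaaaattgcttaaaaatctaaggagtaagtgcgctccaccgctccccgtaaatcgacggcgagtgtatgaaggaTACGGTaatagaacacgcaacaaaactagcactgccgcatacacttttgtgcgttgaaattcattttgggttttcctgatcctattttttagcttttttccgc
rpl-35: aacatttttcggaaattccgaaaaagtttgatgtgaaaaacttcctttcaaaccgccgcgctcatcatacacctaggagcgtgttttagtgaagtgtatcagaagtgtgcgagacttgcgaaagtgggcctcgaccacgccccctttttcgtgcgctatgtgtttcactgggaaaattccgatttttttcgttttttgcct
The rpl-15 window held all 3 words, that of rpl-20 held 1 and that of rpl-35 none.

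The strongest small-subunit gene was rps-28, with signal 314, rank 33, and replicate ranks 30 and 61. It was followed by rps-19 with 286 (replicate ranks 50 and 56), rps-12 with 251 (109 and 80) and rps-20 with 238 (47 and 256). The first 3 lay within the 109 strongest peaks of either replicate, whereas rps-20 ranked 5.45 times deeper in replicate 3. Signals of 217, 215 and 213 followed at rpl-24.2, rpl-12, whose protein sits at the base of the ribosomal stalk, and rps-1. The next small-subunit genes were rps-26 (187) and rps-15 (181), then rps-4 (171). Among large-subunit genes rpl-43 and rpl-7A had 176 and 175, rpl-22 159, rpl-11.2 154, rpl-14 144 and rpl-5 137. The proteins of rpl-5 and rpl-11.2 are those that bind 5S ribosomal RNA. At the other end stood rpl-21 (85.8), rps-3 (82.6) and rps-29 (80.4, rank 1731), not far above the lowest signal in the IDR list, 77.9.

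The replicates were compared by rank, since the signal of separately called lists is not on a shared scale. A summit within 100 bp was found in both replicate lists, each of 30000 peaks, for 55 of the 58 genes, and 93.7% of all occupied genes met that condition. The exceptions rps-2, rpl-41.2 and rpl-18 had a match in replicate 2 and none within 100 bp in replicate 3. The promoter windows of rpl-41.2 and rpl-18 still held a replicate 3 summit, at rank 1617 (-200 bp) and rank 1583 (-14 bp). That of rps-2 held none. At a depth equal to the length of the IDR list, the strongest peaks of both lists held 39 of the 58, beside 58.5% of all occupied genes. By matched summits, a further 12 passed that depth in replicate 2 alone, rpl-41.2 and rpl-18 among them, 6 in replicate 3 alone and rps-2 in neither. The counts for a single replicate were not made over all occupied genes.

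Of the 55 matched genes, 32 ranked better in replicate 2 and 23 in replicate 3. That split was not counted over all IDR peaks, so it cannot be called particular to these genes. The median ratio between the deeper and the higher rank was 1.91, beside 2.01 over all 1695 matched IDR peaks. The widest gaps were at rps-23 (rank 342 in replicate 2 and 4097 in replicate 3), rpl-22 (145 and 1462) and rpl-31 (546 and 4414). All 3 stood higher in replicate 2. Over the 52 distinct matched peaks of these genes Spearman's rho between the replicates' signals was 0.58, given as a description, and it was 0.39 over the 1695 peaks. These points share the same 2 libraries. With as many of the strongest peaks of replicate 2 alone in place of the IDR list, 55 genes were occupied (8.90% of all coding genes), with those of replicate 3 alone 48 (7.36%), and 41 in both.

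**Figure D2:**
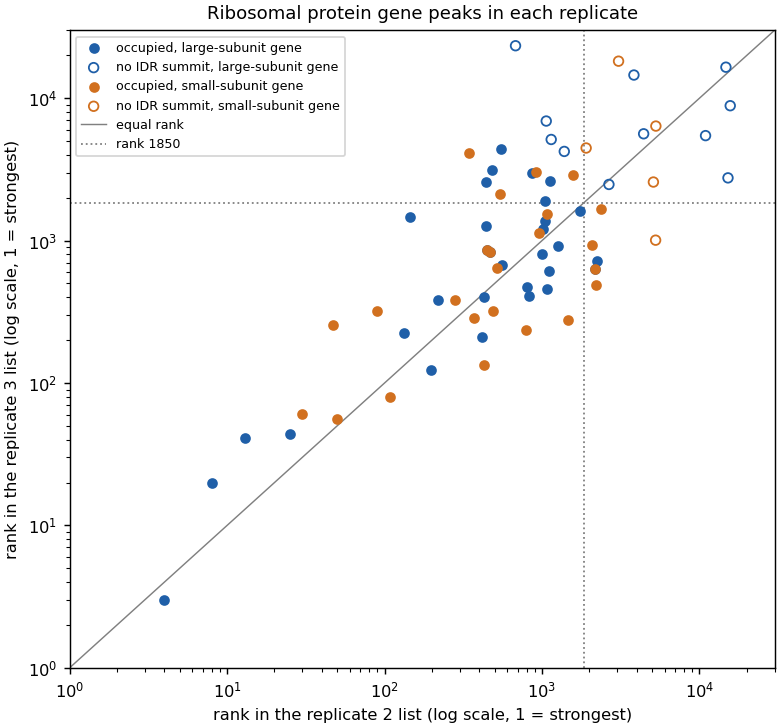
Rank of the peak in the replicate 2 list (horizontal, log scale) and the replicate 3 list (vertical, log scale) for occupied genes (filled) and for the best peak of genes with no IDR summit (open), blue for the large and orange for the small subunit. Genes with no match in a list are not drawn, the solid line is equal rank and dotted lines mark the number of IDR peaks, and rpl-3 (4 and 3) lies at the lower left.

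All 58 summits lay upstream of the annotated 5′ end, as did most summits of the other occupied coding genes. Of those others 3.71% lay 0 to 100 bp and 1.22% 100 to 200 bp downstream. The median position of the 58 was -296 bp (quartiles -366 and -241), from -734 bp at rpl-43 to -35 bp at rpl-12. The other 1642 occupied coding genes had a median of -235 bp with quartiles of -408 and -133. Between -400 and -200 bp lay 43 of the 58 (74.1%, 61.6 to 83.7), beside 504 of 1642 other occupied genes (30.7%, 28.5 to 32.97). Positions were alike in both subunits, with medians of -307 bp for rpl and -292 bp for rps genes.

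**Figure D3:**
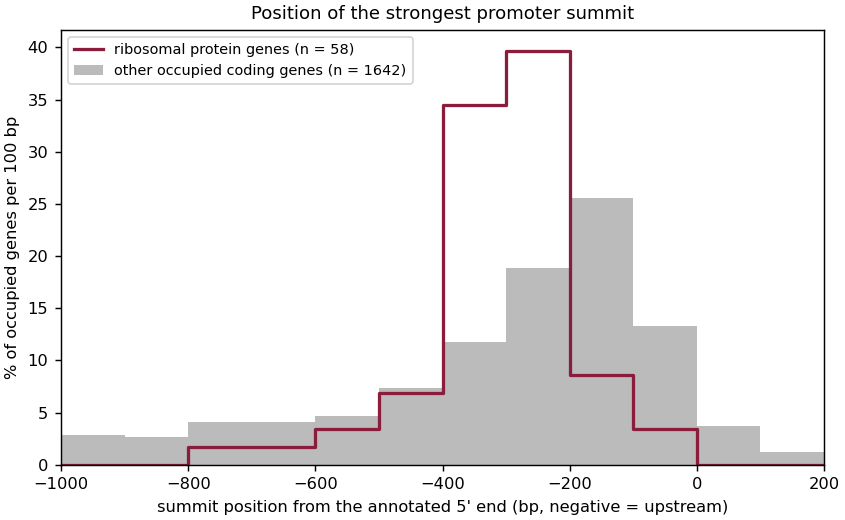
Share of occupied genes (vertical, percent per 100 bp) by the position of the strongest summit from the annotated 5′ end (horizontal, bp), as a line for the 58 ribosomal protein genes and as grey bars for the 1642 other occupied coding genes. The line is highest from -400 to -200 bp and the bars from -200 to -100 bp.

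The annotated 5′ end was directly preceded by AG, the letters that end an intron, for 66 of the 78 genes (84.6%), beside 27.6% of all coding genes and 45.4% of other occupied genes. Among occupied ribosomal protein genes it was 86.2% and among the others 80.0%. Positions are counted from the annotated end, and its distance to the start of transcription was not measured here.

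For 22 of the 58 genes another gene's 5′ end lay nearer to the summit. Giving each summit to the nearest 5′ end alone kept 36 of the 58, beside 1224 of all 1700 occupied coding genes. Most ribosomal protein genes stand back to back with a neighbour: 47 of 78 (60.3%) had a coding gene on the opposite strand with its 5′ end within 1000 bp, beside 18.7% of all coding genes. In 37 of the 47 a summit lay between both 5′ ends, beside 19.2% of all coding genes with such a partner. Of those 37 the strongest summit was nearer to the partner in 21 and to the gene itself in 16. The 37 take in 6 ribosomal protein genes paired with each other, whose shared summits count once on each side. This split was not counted over all coding genes with a partner. Which of both genes a shared summit serves cannot be told apart.

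The rpl-20 summit, at -301 bp, was 161 bp from Y17G9B.5. That of rps-19 was 153 bp from hsr-9 and 292 bp from rps-19. The rps-12 summit was 130 bp from ska-3, at -163 bp from rps-12. In each the partner was the nearer. The strongest rpl-12 summit lay instead at -35 bp from rpl-12 and -358 bp from lin-54. At rpl-43 it lay at -734 bp, and 187 bp from Y48B6A.1. At rps-18 the summit lay 185 bp downstream of the 5′ end of sec-61.A, outside the shared interval.

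In 3 cases both neighbours were ribosomal protein genes. The rpl-36 and rps-14 5′ ends were 663 bp apart, with a summit of signal 133 at -378 bp from rpl-36 and -285 bp from rps-14. The rpl-24.1 and rps-10 pair, 610 bp apart, shared a summit of 129 at -246 and -364 bp. The rpl-39 and rps-30 pair, 499 bp apart, shared 1 of 108 at -203 and -296 bp. Each pair joins a large-subunit with a small-subunit gene. Occupied were 38 of 47 genes with a divergent partner (80.9%, 67.5 to 89.6) and 20 of 31 without (64.5%, 46.9 to 78.9), beside 21.9% and 5.44% of all coding genes. The intervals of both groups of ribosomal protein genes overlap.

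No IDR summit was found for 20 genes, 14 rpl and 6 rps. A summit of the pooled list, called on both replicates together and 30000 peaks long, stood in the window of 17 of them, beside 33.5% of all coding genes with no IDR summit. The IDR peaks were the strongest of that list. Replicate ranks of these genes are those of the best peak anywhere in the window. Just outside stood rpl-30 at pooled rank 1857 (replicate ranks 1144 and 5130), rpl-38 at 1926 (1385 and 4228) and rpl-2 at 1935 (679 and 23355). At rpl-2 the pooled and replicate 2 summits lay at -501 and -500 bp. Its replicate 3 peak was a different one, 183 bp downstream of the 5′ end. All 3 stood within that depth in replicate 2 and not in replicate 3.

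By pooled rank, rpl-25.2 followed at 2080, rps-6, the gene of the S6 kinase substrate, at 2105 (replicate ranks 5267 and 1007), rpl-10 at 2202 (1064 and 6912) and rps-7 at 2450. Thus 7 of the 20 lay within rank 2500, a depth not counted over all coding genes with no IDR summit. Then came rps-5 (2761), rpl-11.1 (3772), rps-25 (4317), rpl-25.1 (4867, 146 bp downstream of its 5′ end) and rpl-4 (4988). Deeper were rpl-41.1 (6083), rps-8 (7060), rpl-26 (11877), rps-16 (20004) and rpl-42 (28356). For rpl-16, rpl-27 and rpl-37 no pooled summit lay in the window, and rpl-37 lies within the body of pitp-1. The occupied gene rpl-24.2 (signal 217) likewise lies within the body of C03D6.1.

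Of the 4 ribosomal protein genes whose nearest upstream coding gene was on the same strand and ended 0 to 200 bp away, a layout often found within operons, none was occupied (Wilson upper bound 49.0%), beside 58 of the other 74 (78.4%, 67.7 to 86.2). The limit of 200 bp was chosen after the values were seen. Over all coding genes 3.94% with such a neighbour and 8.99% without were occupied. The 4 were rpl-25.1 (97 bp from glit-1), rpl-16 (105 bp from lias-1), rps-16 (109 bp from fib-1) and rpl-27 (119 bp from C53H9.2). The smallest same-strand gap of an occupied gene was 356 bp, at rps-2.

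At 3 of these 4 the upstream gene was itself occupied. At fib-1, which encodes the nucleolar methyltransferase fibrillarin, the summit had signal 172 at -87 bp. At lias-1 it had 168 at -281 bp and at glit-1 111 at -186 bp. At C53H9.2 the best pooled summit ranked 4181. Whether each pair is transcribed together was not tested.

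**Figure D4:**
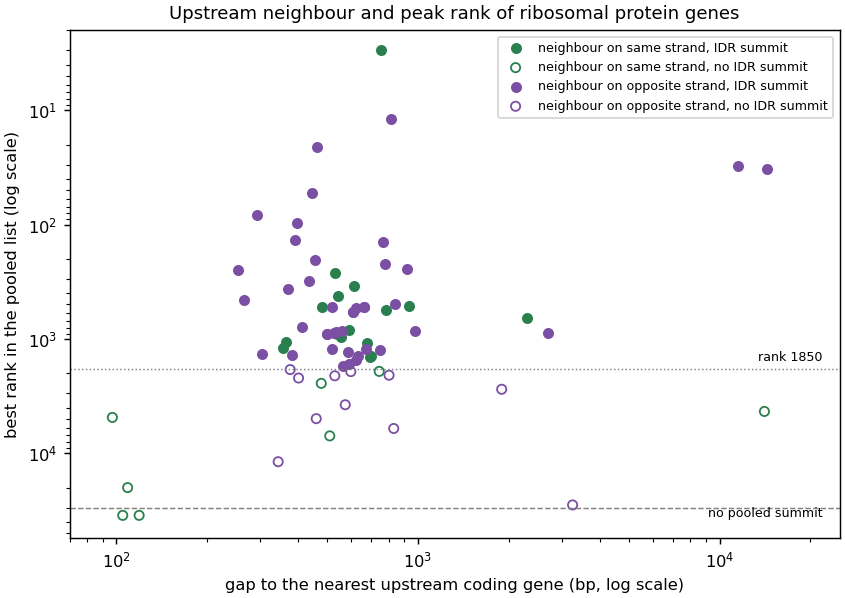
Gap to the nearest upstream coding gene (horizontal, bp, log scale) and best rank in the pooled list (vertical, log scale, strongest at the top) for ribosomal protein genes, green where that neighbour is on the same strand and purple where it is on the opposite strand, filled with an IDR summit and open without. Genes overlapping the neighbour are not drawn, and the 4 green open points at the left are the genes 97 to 119 bp from the gene before them.

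Paralogous genes were not always bound alike. Of rpl-11.1 and rpl-11.2 the second was occupied (signal 154, replicate ranks 426 and 404) and the first stood at pooled rank 3772. Of rpl-41.1 and rpl-41.2 the second was occupied (89.0). Both rpl-24.1 (129) and rpl-24.2 (217) were occupied, while neither rpl-25.1 nor rpl-25.2 was. Also occupied were rpl-7 (111) and rpl-7A (175), which share a number in their names but belong to different protein families. No mapping settings are given in the sources used here, so reads shared between copies could not be examined.

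A snoRNA gene lay within 500 bp of the strongest summit of 6 occupied genes, on 5 summits, beside 2.82% of all occupied genes. They were rps-12 (243 bp), rps-26 (136 bp), rpl-7A (371 bp), rpl-7 (494 bp) and the shared summit of rpl-24.1 and rps-10 (380 bp). Except at rps-26, each of these snoRNA genes lies inside the ribosomal protein gene itself, for the shared summit inside rpl-24.1. Of the 346 annotated snoRNA genes 19 lay inside 13 ribosomal protein genes, 10 of which were occupied (76.9%, 49.7 to 91.8), beside 48 of the 65 that host none (73.8%, 62.0 to 83.0). Median signal was 130 in both.

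The occupied share differed between chromosomes for all coding genes, and that of ribosomal protein genes was above it on each. It was 16 of 23 on chromosome I, 7 of 10 on II, 16 of 18 on III, 14 of 17 on IV, 4 of 8 on V and 1 of 2 on X. All coding genes gave 11.7%, 8.26%, 12.6%, 8.02%, 4.79% and 8.90% in that order. With 2 to 23 genes per chromosome the Wilson intervals of the ribosomal protein genes are wide, from 9.45 to 90.5% on X.

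Genes related to the ribosome but outside the rpl and rps names were read for comparison. Among 6 others of the cytosolic ribosome 2 were occupied, ubq-2 (signal 103) and ubl-1 (94.1), which encode ribosomal proteins fused to ubiquitin or a ubiquitin-like protein. The stalk gene rla-0 stood at pooled rank 2693, rack-1 at 2959, and rla-1 and rla-2 had no pooled summit in the window. The list called ribosome assembly genes here was drawn broadly. It takes in rpoa-1, rpoa-2, rpoa-12 and ncl-1, which are not assembly factors as such. Of its 25 genes in the annotation 11 were occupied (44.0%, 26.7 to 62.9), led by fib-1 (172), rbd-1 (142) and lpd-7 (133), whose summit is also that of rpl-9. They continued with nol-58 (123), nifk-1 (118), dao-5 (113), pro-1 (105), rpoa-1 (103), wdr-46 (98.2), nola-3 (83.8) and ncl-1 (80.8). The interval of this list ended just below the start of that of the 78 genes, at 62.9 and 63.7%. Genes that share a summit are each counted in both. With replicate 3 peaks alone 9 of the 25 and 48 of the 78 were occupied. With the nearest 5′ end only it was 7 and 36. No intervals were computed for these alternatives, so a difference between the lists is not settled.

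The sequences around the summits were searched for short words on both strands. The 55 windows of that width had a GC content of 41.17% ± 4.03 (SD), beside 43.3% ± 7.38 in the windows of 1199 other promoter summits. Of the 7 words listed at the outset, TTTCAG, which contains the AG of an intron end, was in 38.2% of the ribosomal protein gene windows and 19.4% of the others. GAGAGA was in 21.8% and 35.9%, and CTGCGTCT in 5.45% and 12.01%. CACGTG was in 5.45% and 3.67%, TATAAA in 9.09% and 14.0%, GGGCGG in 9.09% and 12.6%, and TTCGCG in 14.5% and 14.7%.

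A set of 3 further words was picked by eye from the ribosomal protein gene windows themselves, so their shares there describe the choice. ACCGTA was in 50.9% of these windows and 10.6% of the other promoter windows, CCTAAA in 45.5% and 5.42%, and ACTCGT in 29.1% and 7.42%. At least 1 of them was in 37 of 55 windows (67.3%) and in 20.9% of the others. All 3 were in 10 windows (18.2%) and in 3 of the others (0.25%). CCTAAA had 26 sites, 20 on the strand of the gene and 23 on the gene's side of the summit, at a median of 57 bp. ACCGTA had 28 sites with a median of 17 bp, and ACTCGT 18 with a median of 2 bp and 4 on the gene's strand.

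**Figure D5:**
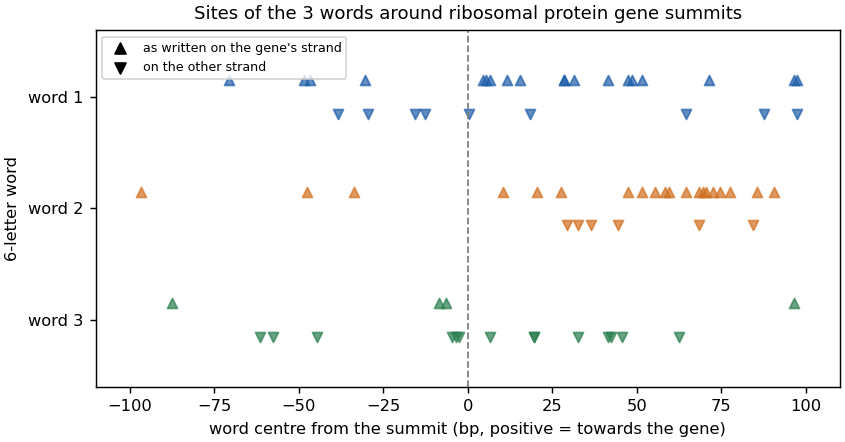
Position of each site of the 3 words picked by eye (word 1 is ACCGTA, word 2 is CCTAAA and word 3 is ACTCGT) from the summit (horizontal, bp, positive towards the gene) in the 55 windows, with upward triangles for the gene's strand and downward for the other. Of the 26 CCTAAA sites 23 lie at positive positions.

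The 600 bp upstream of the 20 unoccupied genes had no part in the choice of words, whereas those of the 58 occupied genes take in most of the windows from which both sets were picked. The shares of the occupied genes are raised by that choice, so they are given side by side with no comparison drawn. At least 2 of the 3 words stood there in 10 of those 20 (50%) and in 29 of the 58 occupied genes (50%), beside 9.03% of all coding genes and 12.3% of other occupied genes. A second set, picked by a rule after the first had been counted, took the 3 words of 8 letters with the largest excess in the same windows: AACGAGTG, TACGGTAA and GGCCTAAA. At least 1 of them was in 26 of 55 windows (47.3%) and 4.003% of the others. Upstream, at least 2 stood in 10 of 58 occupied genes (17.2%) and 0 of 20 unoccupied ones, beside 0.23% of all coding genes, and at least 1 in 50% and 45.0%, beside 5.51%. Singly, GGCCTAAA was upstream of 8 of 20 unoccupied (40.0%) and 15 of 58 occupied genes (25.9%), beside 1.95% of all coding genes. AACGAGTG was upstream of 1 of 20 and 14 of 58 (24.14%), beside 1.497%, and TACGGTAA of 0 of 20 and 13 of 58 (22.4%), beside 2.32%.

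A window of an unoccupied gene is shown for contrast with those above, chosen after the values were seen. It is centred at the median position of -296 bp from the rpl-10 5′ end, chrII:8143485-8143685 (plus strand), build WBcel235, with the same words in capitals.
rpl-10: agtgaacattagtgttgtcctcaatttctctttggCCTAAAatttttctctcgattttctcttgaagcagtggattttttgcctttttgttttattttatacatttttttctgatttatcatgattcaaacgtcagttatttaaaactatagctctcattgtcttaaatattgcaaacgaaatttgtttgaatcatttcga
It held CCTAAA, as part of GGCCTAAA, while the best pooled summit of rpl-10 lay at -443 bp. A match of letters is a description, and binding to these words was not tested.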

How the data were processed

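Early embryos of 1 strain were assayed by ChIP-seq in 2 biological replicates, as the labels call them. The authors deposited ce11 peak lists for each replicate, for both together and after IDR, each called against 2 controls, per the labels. The sources used here name no peak caller, aligner or IDR threshold, and read depth is unknown from the lists. The signal score deposited by the authors ranked peaks within a list, and its scale is not given. The −log10 q-value the authors deposited was read as a description only, and summit positions came from the deposited lists.

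Computed here, with Python 3.11.15, numpy 2.4.6, pandas 2.3.3 and scipy 1.17.1, were the assignment of summits to 5′ ends of the Ensembl WBcel235 annotation, ranks, matches within 100 bp, intervals and word counts on the RefSeq sequence. The assignment was tested on simulated data. The genes, lists and tests were chosen with earlier results of these data known, so shares are descriptions and no p-value is given. Genes named singly are the 12 rpl and 8 rps genes of highest signal, the 3 lowest, the 3 of largest rank ratio, all unoccupied genes, paralogs, and divergent or snoRNA neighbours, while rps-2 and rpl-18 were named after their values were seen. Words were taken in 3 sets: 7 listed at the outset, 3 of 6 letters picked by eye from the windows, then 3 of 8 letters picked by rule after the second set had been counted. The rule left out words with a run of 5 equal letters or sharing 6 letters with a word already taken. Both later sets are reported. The summit window sequence of rpl-3 is not reported here. Alternatives covered the window, overlap, 5′ ends, list depth, nearest 5′ end, distances and each replicate alone.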

Additional observations from a re-analysis of the deposited data

How the results depend on the processing

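Recomputing 15 results under 74 alternatives left 57 within the limits used (1.5 times for counts), moved 17 and reversed none. Giving each summit to the nearest 5′ end alone moved the occupied ribosomal protein genes from 58 to 36 (46.2%, beside 6.13% of all coding genes), the large-subunit share to 48.9%, the small-subunit share to 41.9%, the other cytosolic ribosome genes from 2 to 1 and the assembly genes from 11 to 7. The 50% of IDR peaks of higher signal gave 51.1% and 58.1% of large- and small-subunit genes, a median signal of 138, 0 other ribosome genes and 6 assembly genes, as fewer peaks were used. With 1 replicate's list alone, occupied ribosomal protein genes were 48 to 55, large-subunit shares 57.4 to 74.5%, small-subunit shares 64.5 to 67.7% and other cytosolic ribosome genes 1 to 3, with 1 when replicate 2 was left out. Without replicate 3, and also with the nearest 5′ end alone, the large-subunit share was the higher, which turns the order of the subunits. That order was not among the 15 results counted. In the top 500 of both replicates lay 18 genes in place of 39 at the depth of the IDR list. Divergent 5′ ends at most 500 bp apart left 14 genes with a summit in the shared promoter in place of 37. A snoRNA distance of 200 bp gave 1 gene and 1000 bp gave 11, in place of 6. The 8-letter words, an alternative chosen after seeing the data, gave 10 occupied genes with at least 2 words upstream in place of 29, and 0 unoccupied ones in place of 10. The cause was not tested. No paired analysis was possible because the study holds 1 group. Depth is unknown from the lists, and 2 replicates limit every statement on spread.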
